A study of Mus musculus with 8 samples.

Results

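Binding of Bcl11b, a DNA-binding protein with zinc fingers that developing T cells need to become and to remain T cells, was mapped in mouse thymocytes with ChIP-seq, in which chromatin is precipitated with an antibody and its DNA sequenced. The results described here are those for 7 immune checkpoint genes, Pdcd1, Lag3, Tigit, Btla, Havcr2, Cd274 and Pdcd1lg2. An interval, a 201 bp stretch in which reads were counted, was a member when its nearest protein-coding gene body was one of the 7 and lay within 100 kb of its midpoint. The genes were selected on their function, with earlier results of these data known, and the intervals were chosen by position and by a measured value, the read counts high enough for the deposited normalized table. That table held 33 such intervals of 63098 in all, at 6 of the 7 genes. A further 18 intervals by the same positions were counted by the authors but stood only in the table of raw counts, among them the single interval of Havcr2.

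The libraries compared were 3 ChIP libraries of Bcl11b +/N440K thymocytes and 3 of Bcl11b +/+ (wild type) thymocytes. Bcl11b +/N440K cells carry the N440K substitution on 1 allele and keep 1 normal allele, so both proteins can be present, and the signal is that of all Bcl11b the antibody precipitated. The comparison asks where binding differs between the genotypes. The 2 wild type input libraries of the labels were not analysed here. The labels give no strain or age. They do not say that each library came from its own animal either, and the spread behind every p-value is then one between libraries that may be technical repeats. Thymocytes are a mixture of stages, and a change in the share of a stage cannot be told apart from a change in binding per cell.

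Total counts ranged from 1787899 to 2661343 reads per library over all intervals. All 10 T lineage marker genes on a fixed list had tested intervals nearby, 74 in number with a median level of 17.8 CPM (reads scaled to a common library size). Of 6 B cell genes 4 had them, 16 in number with a median of 7.08 CPM, and the median was 9.35, 7.19 and 8.62 CPM for myeloid, erythroid and thymic epithelial genes. Of the 134 tested intervals of these 5 lists, 0 were called by edgeR, DESeq2 or limma voom, which called 1.14%, 0.0951% and 0.504% of all tested intervals. An unadjusted edgeR p under 0.05 was reached by 14 of the 134, against 12.7% of all tested intervals. With counts summed per gene, where edgeR called 3.45% of all genes, 3 of the 6 myeloid genes had a value. Itgam was lower in N440K (log2 fold change -0.36 ± 0.10, SE; edgeR adjusted p = 0.0282), while Zbtb46 (-0.26 ± 0.15; adjusted p = 0.41) and Flt3 (0.06 ± 0.09; adjusted p = 0.793) did not pass. The part of such cells in the results below was not tested. Binding is not expression, so these values do not check which cells were present. Over all tested intervals, edgeR's quasi-likelihood test with Benjamini-Hochberg adjustment called 720 at an adjusted p under 0.05 (1.14%), 290 higher (0.46%) and 430 lower (0.681%) in N440K. Leaving out 1 library moved that number to between 289, without N440K replicate 1, and 502, without N440K replicate 2.

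Immune checkpoints are pairs of receptors on T cells and ligands on neighbouring cells that restrain T cell activation. PD-1, the product of Pdcd1, is an inhibitory receptor that T cells and thymocytes display after antigen receptor signalling, and its ligands PD-L1 and PD-L2 are encoded by the neighbouring genes Cd274 and Pdcd1lg2. LAG-3 is related to CD4 and binds MHC class II, TIGIT competes with the stimulatory receptor CD226 for shared ligands, BTLA binds HVEM (the product of Tnfrsf14), and TIM-3, the product of Havcr2, marks terminally activated and exhausted T cells. In thymus, PD-1 is known to appear on thymocytes that have received receptor signals.

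Bcl11b intervals lay at or close to the start of several of these genes, and the sequences there are shown because they are the member sequences that the reference tables hold. RefSeq (GRCm38.p6, the coordinates of mm10) gave a window from 250 bases before to 50 after the start for 6 of the 7 genes, all but Lag3. The start of a gene is here the start used for its window. The gene bodies of Tigit, Btla and Cd274 reach further upstream, to 43665125, 45223705 and 29362107, against starts at 43664184, 45224337 and 29367438. A tested interval overlapped 4 of these 6 windows, and 33.1% of the 32851 windows of the whole table. In each line the sequence runs 5′ to 3′ on the gene's strand, base 251 is the start, and capitals mark the bases inside a tested Bcl11b interval.
Pdcd1, chr1:94052504-94052803, minus strand: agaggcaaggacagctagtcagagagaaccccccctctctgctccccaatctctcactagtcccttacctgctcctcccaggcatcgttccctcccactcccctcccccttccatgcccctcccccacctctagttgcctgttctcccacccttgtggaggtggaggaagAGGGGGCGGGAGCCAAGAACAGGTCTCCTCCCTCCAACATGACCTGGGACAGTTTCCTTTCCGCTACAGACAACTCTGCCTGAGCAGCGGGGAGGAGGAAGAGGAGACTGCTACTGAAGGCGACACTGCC
Tigit, chr16:43664135-43664434, minus strand: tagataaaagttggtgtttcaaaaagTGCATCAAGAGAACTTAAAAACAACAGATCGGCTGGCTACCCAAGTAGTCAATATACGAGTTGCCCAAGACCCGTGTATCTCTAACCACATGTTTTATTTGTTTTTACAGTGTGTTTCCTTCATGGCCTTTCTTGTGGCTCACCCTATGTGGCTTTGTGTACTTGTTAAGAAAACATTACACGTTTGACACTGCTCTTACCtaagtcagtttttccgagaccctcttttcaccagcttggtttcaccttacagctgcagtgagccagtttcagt
Btla, chr16:45224087-45224386, plus strand: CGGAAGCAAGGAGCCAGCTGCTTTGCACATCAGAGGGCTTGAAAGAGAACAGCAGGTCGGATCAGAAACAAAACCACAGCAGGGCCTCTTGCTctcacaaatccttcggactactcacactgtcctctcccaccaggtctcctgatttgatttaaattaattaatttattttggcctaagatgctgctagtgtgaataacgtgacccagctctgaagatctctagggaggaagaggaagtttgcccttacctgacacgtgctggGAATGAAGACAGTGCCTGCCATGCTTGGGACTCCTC
Cd274, chr19:29367188-29367487, plus strand: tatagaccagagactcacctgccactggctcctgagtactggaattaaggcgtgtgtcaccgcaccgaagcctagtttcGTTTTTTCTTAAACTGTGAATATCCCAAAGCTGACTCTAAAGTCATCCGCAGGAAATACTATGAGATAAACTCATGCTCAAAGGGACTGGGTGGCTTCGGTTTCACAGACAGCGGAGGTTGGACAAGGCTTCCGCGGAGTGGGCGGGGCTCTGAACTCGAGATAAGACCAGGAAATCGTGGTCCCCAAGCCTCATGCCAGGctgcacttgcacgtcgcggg
The Cd274 and Tigit windows each held a whole interval of 201 bases. The Pdcd1 window shared 130 bases with its interval, around and after the start. The Btla window touched 2 intervals, one upstream of the start and one after it, over 129 bases together. The Tigit interval ended just before the start, and the Cd274 interval ran across it.

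4 short motifs were searched on both strands of the 6 windows, with positions counted from 1 at the 5′ end. GGAAG, the core recognised by ETS family factors, lay at 109, 166 and 267 in Pdcd1, at 2, 229 and 235 in Btla, at 208 in Cd274, at 39 and 245 in Havcr2 and at 148 in Pdcd1lg2. It was not found in the Tigit window, and 71.4% of all windows held it. TGTGGT, the motif of Runx factors, lay at 111 in Tigit, 73 in Btla, 205 in Havcr2 and 252 in Pdcd1lg2, and 16.8% of all windows held it. TGACCA, which the paralog BCL11A is known to bind in human erythroid cells, lay at 250 in Pdcd1lg2 only, where it overlaps the TGTGGT match, and 13.6% of all windows held it. CAGNTG, an E box, lay at 15 in Btla, 16 in Cd274, 50 in Pdcd1lg2 and 277 in Tigit, and 51.4% of all windows held it. GGAAG started inside a tested interval at 267 in Pdcd1, 2 in Btla and 208 in Cd274. So did TGTGGT at 111 in Tigit and 73 in Btla, and CAGNTG at 15 in Btla. All matches describe letters and are not shown to be binding sites.

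The strongest interval of each gene spanned a wide range of Bcl11b signal. Levels are in CPM at the authors' scaling, applied here also to intervals outside the normalized table. Every interval has the same width, but no input was used, so levels are compared between genes as signal without its background. The strongest Pdcd1 interval averaged 115 ± 9.09 CPM in N440K and 114 ± 3.85 CPM in wild type thymocytes (SD, n = 3 each), rank 32 of all tested intervals by mean level. The strongest Pdcd1lg2 interval averaged 86.6 ± 8.46 CPM in N440K and 74.3 ± 4.26 CPM in wild type, rank 200. The strongest Lag3 interval averaged 78.8 ± 2.72 CPM in N440K and 76.0 ± 4.12 CPM in wild type, rank 230. The libraries of these last intervals overlapped within each genotype, so their order was not settled. Below them came Tigit with 42.7 ± 6.66 CPM in N440K and 38.1 ± 2.40 CPM in wild type, then Btla with 31.4 ± 6.61 CPM in N440K and 33.4 ± 3.79 CPM in wild type. Cd274 was the lowest of these, with 29.0 ± 5.49 CPM in N440K and 29.5 ± 4.84 CPM in wild type. Library ranges overlapped between Tigit and Btla and between Btla and Cd274. The 1 Havcr2 interval averaged 3.70 ± 0.959 CPM in N440K and 5.46 ± 2.06 CPM in wild type, a mean of 4.58 CPM over the 6 libraries, and is not in the normalized table.

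The 33 intervals had a median level of 13.3 CPM, against 11.8 CPM over all tested intervals, and 17 of the 33 lay at or above that overall median. Inside a gene body lay 18, and 15 lay outside, the farthest 44.2 kb away; over all tested intervals 61.6% lay inside. Whether an interval inside a gene lay in an exon or an intron was not determined. The filter on low counts set the lower edge: the weakest interval kept averaged 5.38 CPM and the strongest left out 4.90 CPM. Of the 33, 24 passed the filter level in all 6 libraries, and 0 passed it in 1 genotype only.

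**Figure D1:**
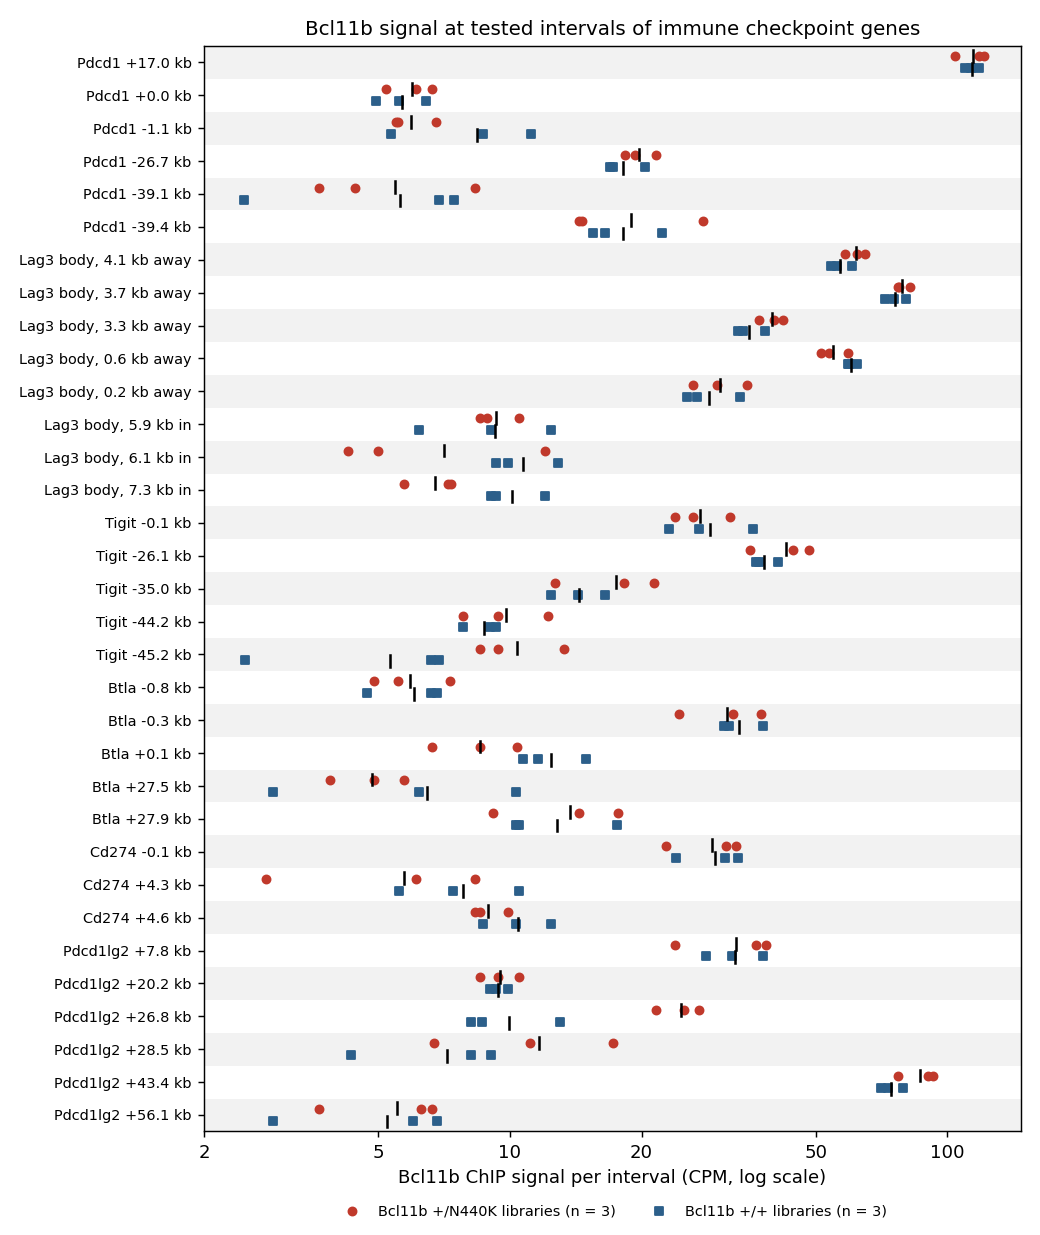
Bcl11b ChIP signal in CPM (log scale) in each library at the 33 tested intervals, with N440K as circles above wild type as squares and a black tick at each mean (n = 3 each). Rows give kb from the gene's start (positive is downstream), or for Lag3 the distance from or into the gene body from its lower-coordinate end. The circles and squares overlap in most rows. They stand apart in 5 of the 33, against 17.3% of all tested intervals, among them the Pdcd1lg2 interval 26.8 kb from its start.

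Between genotypes, 1 of the 33 intervals was called, higher in N440K, and 0 were called lower (edgeR, adjusted p under 0.05 over all 63098 intervals). That is 3.03%, against 1.14% over all intervals. The 7 genes were proposed with this gain already known, so no excess is read from that share. An unadjusted p under 0.05 was reached by 3 of 33 (9.09%), against 12.7% of all intervals. The libraries did not overlap between genotypes at 5 of the 33 (15.2%), against 17.3% of all intervals. They were higher in N440K at 2, against 8.34% of all intervals, and lower at 3, against 8.95%. These shares were near those of all intervals. The median log2 fold change was 0.05, with 20 positive and 13 negative, against a median of 0 over all tested intervals, 50.5% of them positive. DESeq2 and limma voom, which called 60 (0.0951%) and 318 (0.504%) of all intervals, each called the same 1 interval among the 33.

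**Figure D2:**
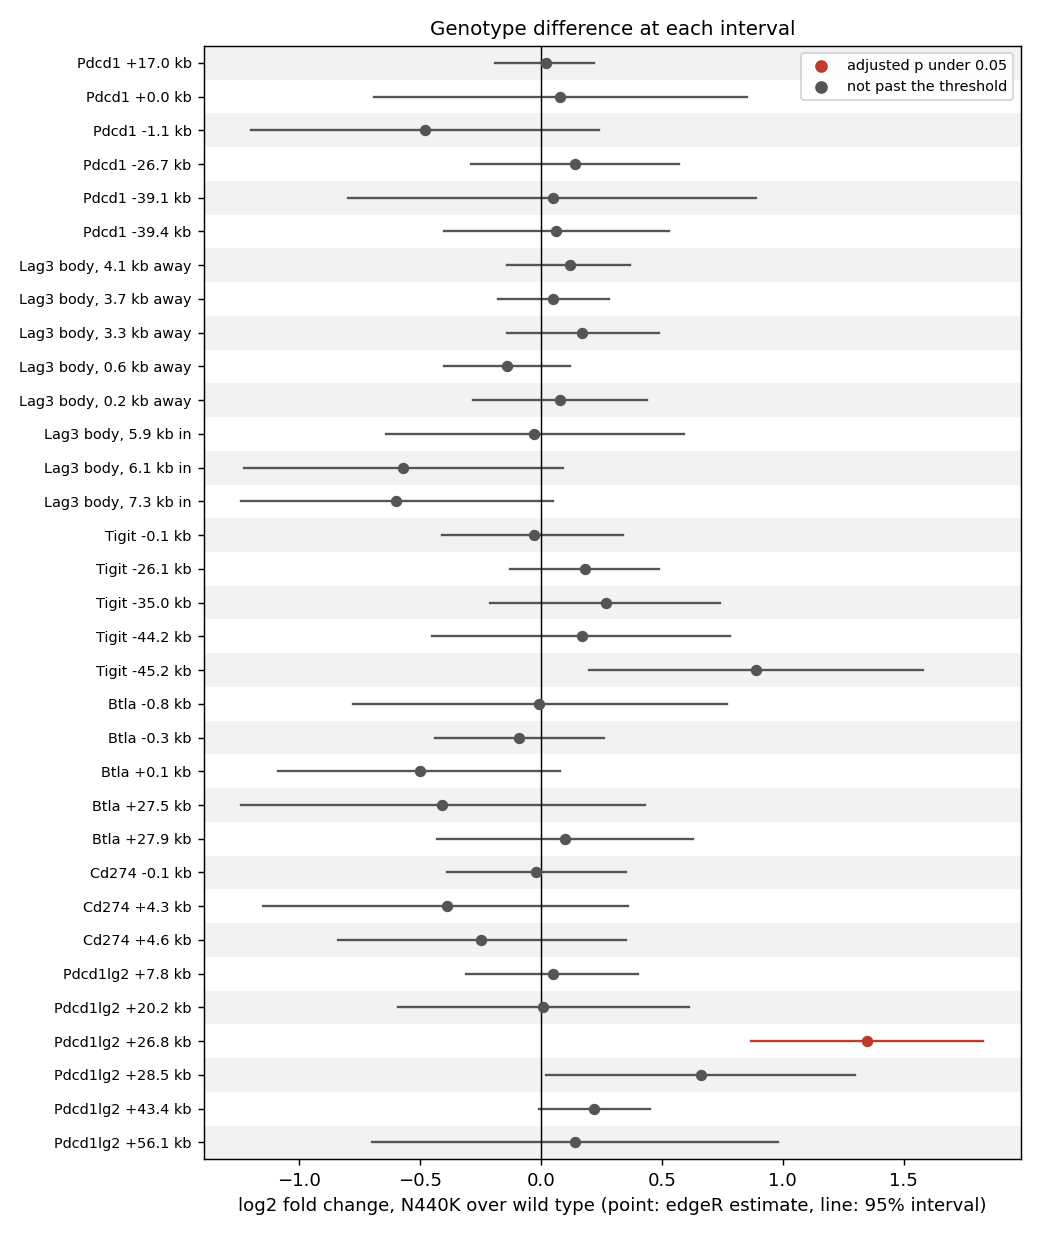
Log2 fold change of N440K over wild type at each of the 33 intervals, with edgeR's estimate as a point and its 95% interval as a line; row names are as in the plot of CPM by library. The red point, at 1.35, is the 1 interval past the adjusted threshold, and 3 lines, its own included, do not cross 0.

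The ligand gene Pdcd1lg2 (gene body chr19:29410919-29472927) held the 1 called change. Its called interval, chr19:29437573-29437773, lies in the gene body 26.8 kb downstream of the start. It had 21.6, 25.0 and 27.1 CPM in the N440K libraries, against 13, 8.65 and 8.16 CPM in the wild type libraries. These values rest on 39, 41 and 52 reads in N440K, against 21, 21 and 19 reads in wild type. Every N440K library was above every wild type library, and wild type replicate 1 was the highest of its group. The log2 fold change was 1.35 ± 0.24 (SE; 95% interval 0.87 to 1.83; edgeR adjusted p = 0.000481), a 2.54-fold gain. Over the 16 other settings tried it stayed past the threshold, with log2 fold changes of 1.23 to 1.54 and adjusted p of 0.00029 to 0.0368. Among the 16 is a refit of the same counts, recovered from the CPM values, which could not differ. At 17.2 CPM over the 6 libraries the interval was of moderate strength, above 68.6% of tested intervals.

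The other 5 tested intervals of Pdcd1lg2 all had a positive log2 fold change, and edgeR called none of them. The nearest, 1.8 kb further downstream at chr19:29439354-29439554, had 11.1, 6.71 and 17.2 CPM in N440K, against 4.34, 9.06 and 8.16 CPM in wild type. Its log2 fold change was 0.66 ± 0.32 (SE; edgeR adjusted p = 0.37; unadjusted p = 0.0432), and the libraries overlapped. The strongest, chr19:29454231-29454431, had 77.0, 90.3 and 92.7 CPM in N440K, against 70.6, 73.3 and 79.0 CPM in wild type. It gave 0.22 ± 0.12 (SE; edgeR adjusted p = 0.433), with the lowest N440K library inside the wild type range. The remaining 3, at 7.8, 20.2 and 56.1 kb from the start, had log2 fold changes of 0.05, 0.01 and 0.14. The called interval took 13.2, 15.8 and 14.2% of the gene's tested signal in the N440K libraries, against 9.17, 6.56 and 5.72% in the wild type libraries.

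No tested interval overlapped the Pdcd1lg2 start. The interval nearest to it, chr19:29412700-29412900, 1.9 kb inside the gene, was left out of the normalized table. It had 4.98, 6.10 and 8.33 CPM in N440K, against 1.86, 2.06 and 3.43 CPM in wild type, from 9, 10 and 16 reads in N440K and 3, 5 and 8 reads in wild type. The N440K libraries were all above the wild type libraries. With no filter on low counts its log2 fold change was 1.39 (edgeR adjusted p = 0.124; unadjusted p = 0.00339), so it did not pass. It is named after its values were seen.

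Summed over its 6 tested intervals, Pdcd1lg2 had 163, 158 and 191 CPM in N440K libraries, against 142, 132 and 143 CPM in wild type libraries. The groups did not overlap. The log2 fold change of the sum was 0.31 ± 0.09 (SE; edgeR adjusted p = 0.0504 over 13605 genes), just short of the threshold, where 469 genes (3.45%) passed, 180 of them higher (1.32%). Its adjusted p ran from 0.0337 to 0.352 over 17 other settings and was under 0.05 in 5 of them. The direction was positive in all 17. Of the other 5 genes with tested intervals, 0 passed by edgeR, against 3.45% of all genes. None had an unadjusted edgeR p under 0.05, against 16.1% of all genes. With DESeq2 and limma voom 0 of these 5 passed as well. The shares of all genes that those tools called are not given here, so nothing is read from that 0.

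Cd274 (gene body chr19:29362107-29388095), which encodes PD-L1 and lies 22.8 kb from Pdcd1lg2, did not pass the test at any tested interval. Its strongest interval, chr19:29367267-29367467, covers the start used, at 29367438, which lies inside the gene body. It had 22.7, 32.9 and 31.2 CPM in N440K, against 31.0, 33.3 and 24.0 CPM in wild type. The groups overlapped, and the log2 fold change was -0.02 ± 0.18 (SE; 95% interval -0.39 to 0.35; edgeR adjusted p = 0.977). This interval also reaches 26 bases into the body of Plgrkt, a plasminogen receptor gene, so its signal cannot be given to Cd274 alone. The intervals 4.3 and 4.6 kb downstream of that start were weaker, with log2 fold changes of -0.39 ± 0.38 and -0.25 ± 0.30 (SE; edgeR adjusted p = 0.729 and 0.798). The 3 tested intervals summed to 43.6 ± 8.56 CPM in N440K and 47.7 ± 6.93 CPM in wild type (SD, n = 3 each; edgeR adjusted p = 0.762). Of its 3 intervals left out for low counts, 1 had libraries that did not overlap, chr19:29382794-29382994, with 3.32, 5.49 and 3.64 CPM in N440K against 1.86, 0.823 and 1.29 CPM in wild type. With no filter its edgeR adjusted p was 0.168, and it is named after its values were seen.

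**Figure D3:**
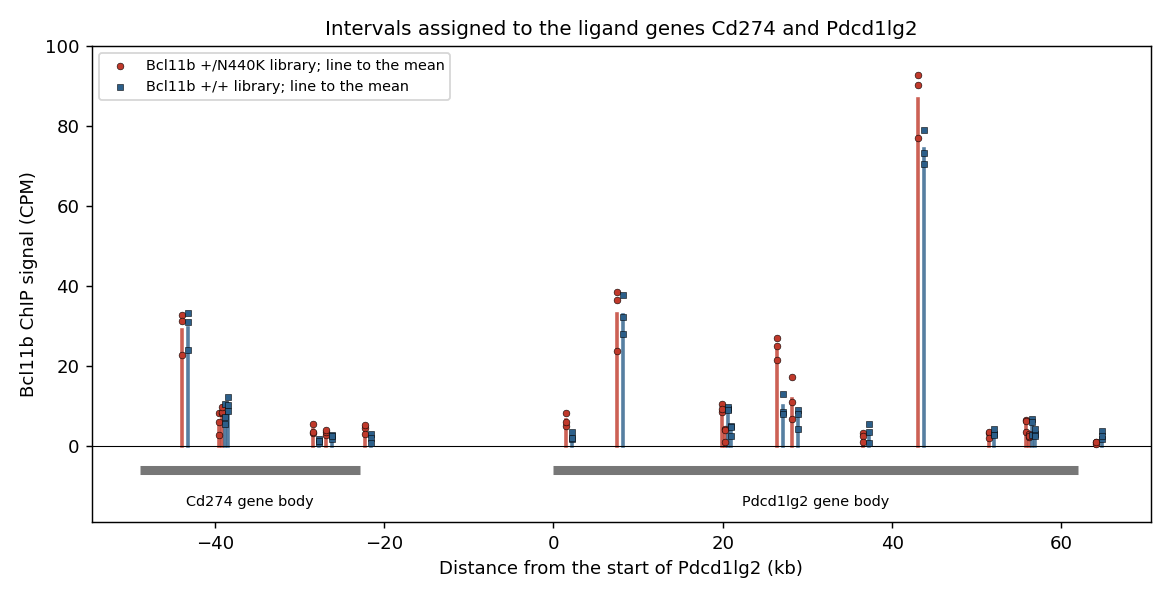
Bcl11b ChIP signal in CPM at all 18 counted intervals of Cd274 and Pdcd1lg2, the 9 low ones included, against distance from the Pdcd1lg2 start in kb; N440K is drawn slightly left of wild type, points are libraries (n = 3 each) and lines reach the mean. At 26.8 kb the N440K points lie at 21.6 to 27.1 CPM and the wild type points at 8.16 to 13 CPM, while at the strongest interval, 43.4 kb from the start, they overlap.

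Among the receptor genes, 0 of 24 tested intervals were called in either direction by edgeR, DESeq2 or limma voom, which called 1.14%, 0.0951% and 0.504% of all tested intervals. With shares this low, nothing about the receptor genes is read from that 0. Pdcd1 (gene body chr1:94038305-94052553) had the strongest Bcl11b site of the 7 genes, chr1:94035404-94035604, 2.8 kb beyond the far end of the gene and 17.0 kb downstream of its start. It had 118, 104 and 121 CPM in N440K, against 113, 110 and 118 CPM in wild type, and the groups overlapped. Its log2 fold change was 0.02 ± 0.10 (SE; edgeR adjusted p = 0.969), with a 95% interval of -0.19 to 0.22. The sign was negative under 7 of 16 other settings. A conserved enhancer that responds to T cell activation is known at about this distance downstream of the Pdcd1 start. The next gene, Neu4, a sialidase gene, lies 7.2 kb from the interval on the other side.

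The Pdcd1 start itself had low signal, above 9.6% of tested intervals. The interval across it, chr1:94052433-94052633, had 6.64, 6.10 and 5.21 CPM in N440K, against 5.58, 4.94 and 6.44 CPM in wild type. Its log2 fold change was 0.08 ± 0.39 (SE; edgeR adjusted p = 0.963), with a wide 95% interval of -0.69 to 0.85 at this depth. Among the tested intervals of Pdcd1, the smallest p belonged to an interval 1.1 kb upstream, chr1:94053598-94053798, with 5.54, 5.49 and 6.77 CPM in N440K, against 8.67, 5.35 and 11.2 CPM in wild type. That gave -0.48 ± 0.36 (SE; edgeR adjusted p = 0.628), with overlapping groups. The 3 intervals 26.7 to 39.4 kb upstream had log2 fold changes between 0.05 and 0.14. Summed over 6 intervals, Pdcd1 had 171 ± 17.9 CPM in N440K and 170 ± 12.8 CPM in wild type (SD, n = 3 each; edgeR adjusted p = 0.96).

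Lag3 (gene body chr6:124904359-124912434) had the most tested intervals, 8, of which 5 lay in the 16.1 kb between the bodies of Cd4 and Lag3. Cd4 encodes the co-receptor of helper T cells, and its proximal enhancer is known to lie in this stretch, so being nearest to Lag3 does not tell which gene an interval serves. The strongest, chr6:124900542-124900742, lies 3.7 kb from Lag3 and 12.4 kb from Cd4. It had 82.0, 77.5 and 77.0 CPM in N440K, against 75.6, 72.0 and 80.3 CPM in wild type, with overlapping groups. Its log2 fold change was 0.05 ± 0.12 (SE; 95% interval -0.18 to 0.28; edgeR adjusted p = 0.901), and its sign turned with loess offsets. Flanking intervals 12 and 12.8 kb from Cd4 averaged 61.8 ± 3.27 and 39.8 ± 2.52 CPM in N440K, against 56.9 ± 3.24 and 35.2 ± 2.62 CPM in wild type (SD, n = 3 each). At 0.6 kb from Lag3, an interval had 59.2, 53.7 and 51.5 CPM in N440K, against 59.5, 59.3 and 62.2 CPM in wild type. There every N440K library was below every wild type library, by -0.14 ± 0.13 on the log2 scale (SE; edgeR adjusted p = 0.718).

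The 3 intervals inside the Lag3 body were weaker, at means of 8.44 to 9.27 CPM over the 6 libraries. The one with the smallest p of the tested Lag3 intervals, chr6:124911675-124911875, had 7.20, 7.32 and 5.73 CPM in N440K, against 9.29, 9.06 and 12 CPM in wild type. The groups did not overlap, yet the log2 fold change of -0.60 ± 0.32 (SE) did not pass (edgeR adjusted p = 0.447). Next to it, at chr6:124910507-124910707, the estimate was -0.57 ± 0.33 (SE; edgeR adjusted p = 0.482), with N440K replicate 3 at 12 CPM inside the wild type range. The 8 intervals of Lag3 summed to 289 ± 10.5 CPM in N440K and 287 ± 21.7 CPM in wild type (SD, n = 3 each; edgeR adjusted p = 0.984).

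**Figure D4:**
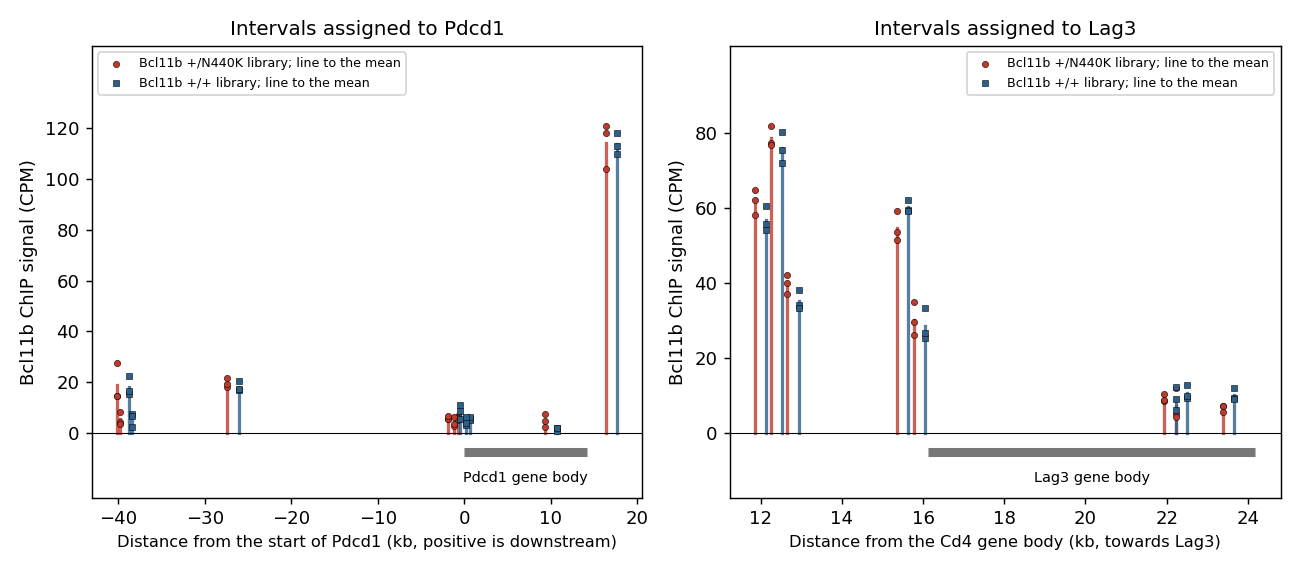
Bcl11b ChIP signal in CPM at the 8 counted intervals of Pdcd1, by distance from its start in kb, and at the 8 of Lag3, by distance from the Cd4 gene body in kb; N440K is drawn slightly left of wild type, points are libraries (n = 3 each) and lines reach the mean. The strongest intervals lie 17.0 kb downstream of the Pdcd1 start and 12.4 kb from the Cd4 body, and N440K and wild type points overlap at both.

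Tigit (gene body chr16:43626137-43665125) was bound next to its start and at 4 sites 26.1 to 45.2 kb upstream of it. The interval just before the start used, chr16:43664208-43664408, lies inside the gene body, which reaches further upstream. This interval had 23.8, 26.2 and 31.8 CPM in N440K, against 35.9, 23.1 and 27.0 CPM in wild type. The strongest, 26.1 kb upstream at chr16:43690234-43690434, had 44.3, 35.4 and 48.4 CPM in N440K, against 40.9, 37.1 and 36.5 CPM in wild type. The groups overlapped at both, with log2 fold changes of -0.03 ± 0.19 and 0.18 ± 0.15 (SE; edgeR adjusted p = 0.967 and 0.692). The farthest, chr16:43709264-43709464, had the smallest p among the tested intervals of the receptor genes, with 13.3, 8.54 and 9.37 CPM in N440K, against 2.48, 6.59 and 6.87 CPM in wild type. The N440K libraries were all above the wild type libraries, with wild type replicate 1 far below its group. The log2 fold change of 0.89 ± 0.35 (SE) did not pass (edgeR adjusted p = 0.227; unadjusted p = 0.0125). Summed over 5 intervals, Tigit had 108 ± 6.88 CPM in N440K and 95.2 ± 6.62 CPM in wild type (SD, n = 3 each; edgeR adjusted p = 0.39).

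Btla (gene body chr16:45223705-45252895) was bound close to its start. Its strongest interval, chr16:45223979-45224179, had 24.4, 32.3 and 37.5 CPM in N440K, against 31.6, 30.9 and 37.8 CPM in wild type, with overlapping groups. The difference was -0.09 ± 0.17 on the log2 scale (SE; edgeR adjusted p = 0.884). Just downstream of the start, chr16:45224351-45224551 had 6.64, 8.54 and 10.4 CPM in N440K, against 14.9, 10.7 and 11.6 CPM in wild type. The groups did not overlap there, and the estimate of -0.50 ± 0.29 (SE; edgeR adjusted p = 0.492) did not pass. The remaining 3 intervals, 0.8 kb upstream and near the far end of the gene, had log2 fold changes of -0.01, -0.41 and 0.10. The 5 intervals summed to 64.4 ± 12.5 CPM in N440K and 71.1 ± 10.4 CPM in wild type (SD, n = 3 each; edgeR adjusted p = 0.696).

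Havcr2 (gene body chr11:46454931-46481255) had 1 interval, chr11:46467147-46467347, 12.3 kb into the gene. It had 2.77, 3.66 and 4.68 CPM in N440K, against 4.96, 3.71 and 7.73 CPM in wild type, from 5, 6 and 9 reads in N440K and 8, 9 and 18 reads in wild type. The groups overlapped, and with no filter the log2 fold change was -0.52 (edgeR adjusted p = 0.63). Of all 18 intervals left out for low counts, 0 passed with no filter, where edgeR called 0.941% of 93708 intervals, and 5 had an unadjusted p under 0.05, against 13.9% of all intervals. DESeq2 and limma voom were not run on them. Of these 5, named after their values were seen, 4 were higher in N440K. They are the Pdcd1lg2 and Cd274 intervals given above, another of Cd274 at chr19:29388898-29389098 (log2 fold change 1.18; edgeR adjusted p = 0.319) and one in the Pdcd1 body at chr1:94042392-94042592 (1.57; adjusted p = 0.175). The lower one lies beyond the far end of Pdcd1lg2, at chr19:29475309-29475509 (-1.50; adjusted p = 0.332).

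**Figure D5:**
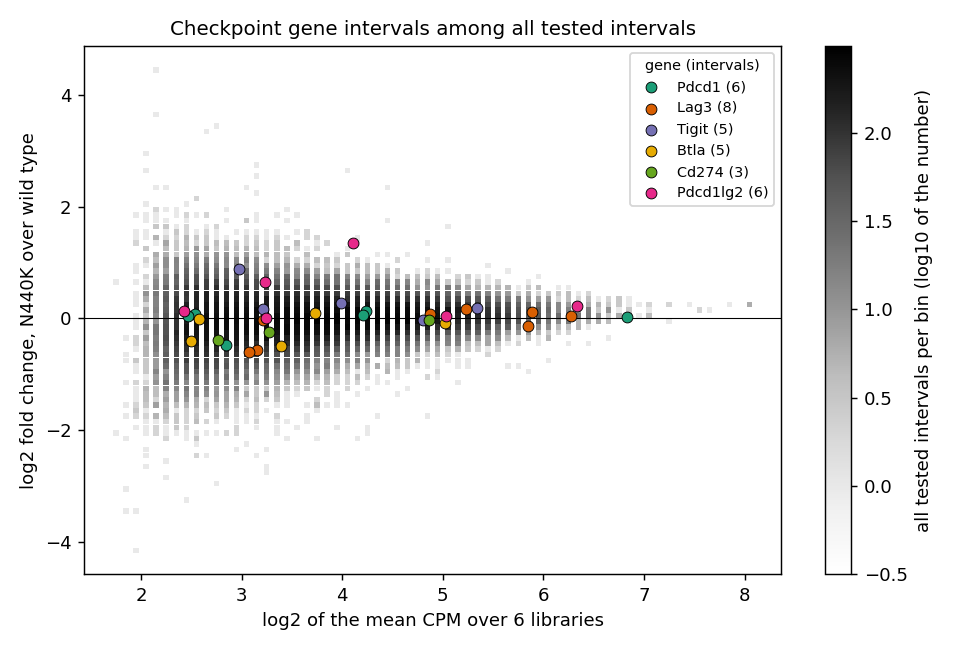
Log2 fold change of N440K over wild type against the log2 of the mean CPM over 6 libraries, for the tested checkpoint gene intervals coloured by gene over all 63098 tested intervals binned in grey. The Pdcd1lg2 point at 1.35 stands at the upper edge of the grey area at its level, and the strongest Pdcd1, Lag3 and Pdcd1lg2 intervals lie near 0 at the right.

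The pattern of the called Pdcd1lg2 interval over the 6 libraries was most like those of 3 intervals elsewhere in the genome, by Pearson's r of log2(CPM + 1) over intervals at or above the median level. They lay in Tcf25 (r = 0.9963), in Slc29a2, an equilibrative nucleoside transporter gene (r = 0.9961), and where Fbxo36 and Trip12 overlap (r = 0.9914). With 6 libraries 152 of 31532 candidates had r over 0.95. None of the 3 was called, with log2 fold changes of 0.34 ± 0.17, 0.61 ± 0.27 and 0.59 ± 0.27 (SE; edgeR adjusted p = 0.403, 0.298 and 0.319).

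Other genes of co-inhibition and co-stimulation were read from lists fixed for this work. Of 61 tested intervals of 8 further inhibitory receptor genes, which include Ctla4, Vsir and Cd160, 0 were called by edgeR, by DESeq2 or by limma voom. These tools called 1.14%, 0.0951% and 0.504% of all tested intervals. The median log2 fold change of the 61 was -0.05. Of them 6 had an unadjusted edgeR p under 0.05, against 12.7% of all tested intervals. Of 99 intervals of the genes of ligands of inhibitory receptors, 1 was called, higher in N440K (1.01%, against 1.14% of all tested intervals), with a median log2 fold change of -0.10. An unadjusted edgeR p under 0.05 was reached by 17 of the 99, against 12.7% of all tested intervals. The called interval lies 14.1 kb from Tnfrsf14, which encodes the ligand of BTLA, at chr4:154942645-154942845. It had 18.8, 23.8 and 20.3 CPM in N440K, against 6.20, 11.9 and 6.44 CPM in wild type. The groups did not overlap, and the log2 fold change was 1.3 ± 0.26 (SE; edgeR adjusted p = 0.00292), a call that DESeq2 did not make.

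Of 91 intervals of stimulatory receptor genes, 1 was called higher and 1 lower (2.2% together, against 1.14% of all tested intervals, 0.46% higher and 0.681% lower). An unadjusted edgeR p under 0.05 was reached by 10 of the 91, against 12.7% of all tested intervals. The lower one lies in Slamf6, a SLAM family receptor gene, at chr1:171939548-171939748, with 7.75, 9.15 and 8.33 CPM in N440K, against 27.3, 18.5 and 21.5 CPM in wild type. The groups stood apart, by -1.38 ± 0.25 on the log2 scale (SE; edgeR adjusted p = 0.000898), again not called by DESeq2. The higher one, 4.7 kb from Tnfrsf18, the gene of the receptor GITR, gave 0.92 ± 0.25 (SE; edgeR adjusted p = 0.0422), and its call was lost under 7 of 16 other settings. These 3 intervals are named after their values were seen. Of 29 intervals of stimulatory ligand genes and 184 of transcription factors and enzymes tied to checkpoint receptors, 0 were called by edgeR, by DESeq2 or by limma voom. These tools called 1.14%, 0.0951% and 0.504% of all tested intervals. An unadjusted edgeR p under 0.05 was reached by 3 of the 29 and 17 of the 184, against 12.7% of all tested intervals. Of the genes on these 5 lists, 0 were called with summed counts, where edgeR called 3.45% of all genes. Neighbouring intervals of a gene are not independent measurements.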

How the data were processed

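Thymocytes were cross-linked, sonicated and precipitated with an antibody against Bcl11b, per the labels' protocols. Tools in the submitters' processing notes, listed without role, are edgeR 3.38.2, MACS2, SAMtools 1.9, bedtools, Bowtie2 2.3.5 and fastp 0.20.0, and the build is mm10. The sources used here do not give whether intervals came from single or pooled libraries. The authors deposited raw counts of reads in 93708 intervals for the 6 ChIP libraries. The authors also deposited CPM values for 63098 of these intervals, which are the counts divided by TMM-scaled library sizes: whole reads were recovered for 100% of values (tolerance 0.01). Steps such as duplicate removal could lower high counts, and inputs were not used, so signal stands without its background level.

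Counts were filtered with filterByExpr by genotype (minimum count 10), which kept the same 63098 intervals, scaled with TMM and tested two-sided with edgeR's quasi-likelihood test and Benjamini-Hochberg adjustment over all intervals, threshold 0.05, genotype being the only term. Tested counts ranged from 1609762 to 2400250 per library, so 1 read was worth 0.412 to 0.620 CPM. Counts summed per nearest gene were tested likewise over 13605 genes. Chi-square per degree of freedom between libraries of 1 genotype was 1.24 to 1.42, above the value of 1 that sampling noise alone gives. Gene bodies and promoter windows came from RefSeq (GRCm38.p6); 1318 intervals lay in, or equally near to, more than 1 gene, and signs of distance to a start use the strand of the promoter windows.

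Named for each gene were the interval with the smallest p, the strongest interval, called intervals and those overlapping the promoter window. The members and lists were chosen with earlier results of these data known, among them the gain at Pdcd1lg2. Alternatives were DESeq2 1.42.0, limma voom 3.58.1, other scalings, filters, distances and thresholds, a replicate block and leaving out each library. Software was R 4.3.3 (edgeR 4.0.16) and Python 3.11.15 with scipy 1.17.1, numpy 2.4.6, pandas 2.3.3 and matplotlib 3.10.9.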

Additional observations from a re-analysis of the deposited data

How the results depend on the processing

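The 1 called interval of the checkpoint genes was called under each of 20 alternatives. They covered tools, scalings, filters, a threshold of 0.01, distances of 50 and 20 kb and each library left out. Some could not have dropped it. The interval lies inside the gene body, so the changes of distance altered only which other intervals were members. Counts recovered from the CPM values were the same counts and gave the same adjusted p. The number of calls over all intervals moved more, where 720 were called. It was 60 with DESeq2, 318 with limma voom and 207 at an adjusted p under 0.01. It was 289 to 502 with 1 library left out (289 and 368 without N440K replicates 1 and 3, 408, 469 and 404 without wild type replicates 1, 2 and 3). Tested alone, the intervals at or above the median level gave 327 calls of 31549, a smaller set than the 63098 of the main fit. Limma voom gave 172 higher and 146 lower, against 290 higher and 430 lower in edgeR. No scaling moved the median log2 fold change of all intervals by more than 0.02.

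With summed counts 0 of 6 checkpoint genes passed, and 1, Pdcd1lg2, did so with the replicate block (adjusted p 0.0411), with no filter (0.0337), within 50 kb (0.0478) and within 20 kb (0.0448). With 1 library left out the number was 0 to 1, and the 1 came without N440K replicate 2 (0.0340). The replicate numbers share no stated source, and same-numbered libraries had correlations of deviations of -0.00372, 0.0278 and 0.0577, so they were not taken as pairs. The replicate block moved the calls over all intervals to 753 and changed no other checkpoint call.

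The sign of some log2 fold changes, most of them near 0 and none past the threshold, turned under alternatives. Some alternatives changed which intervals were summed, and for the others the cause was not tested. The Pdcd1 interval at 94035404 gave -0.002 with total counts, -0.1 with loess offsets with or without the block, -0.019 among stronger intervals, and -0.027 to 0.078 with 1 library left out. Without 1 library, the Pdcd1 start interval gave -0.024 to 0.19, the Btla interval at 45223979 gave -0.25 to 0.064, the Tigit start interval gave -0.18 to 0.13, and the Cd274 start interval gave -0.16 to 0.13, with 0.0087 for the last under no filter. The Lag3 interval at 124900542 gave -0.042 with loess offsets, with or without the block. Summed counts of Pdcd1 gave -0.0027 with DESeq2, -0.00022 with limma voom, -0.00091 with DESeq2 size factors, -0.003 with total counts, -0.013 with loess offsets, -0.019 with the block added, -0.0084 within 20 kb and -0.064 to 0.087 without 1 library. Those of Lag3 gave -0.01, -0.0068, -0.011, -0.013, -0.014 and -0.015 under these first 6 settings and -0.031 to 0.073 without 1 library. Those of Cd274 gave -0.25 to 0.029 without 1 library. With no filter they gave 0.091, a sum that also takes in the Cd274 intervals left out for low counts. Those of Tigit gave 0.19 in the main fit and -0.035 within 20 kb, where only the interval by its start remains.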
